A study of Sus scrofa with 8 samples.

Results

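The HOXA cluster is a run of neighbouring homeobox genes, and members were taken from the deposited expression tables by a symbol of HOXA followed by a number. Described here are 9 members (HOXA2, HOXA3, HOXA4, HOXA5, HOXA7, HOXA9, HOXA10, HOXA11 and HOXA13) of 22366 features. The cluster was selected on its measured read counts, which stood high in lymphoma clones and near 0 in normal lymphocytes, so its levels in clones and controls are described here without a test. RNA was sequenced from 8 pig (Sus scrofa) cultures or cell fractions. Lymphoma clones came from a lymph node tumour (4 libraries) and from the spleen (2 libraries); tumour cells were dissociated, grown in culture until they proliferated and cloned through 4 rounds of limiting dilution. The controls were 1 library of splenocytes magnetically enriched for CD21+ cells, a normal B cell control, and 1 library of splenocytes enriched for CD3+ cells, a normal T cell control. All 6 clones were cultured and the labels describe no culture of the controls, so culture and lymphoma cannot be told apart in any difference between clones and controls. How many animals gave the clones is not stated, so replicate error here is the spread between clones, which may share an animal or a tumour.

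HOX genes encode homeodomain transcription factors that bind DNA and set positional identity along the body axis of the embryo, and genes at one end of a cluster act in anterior structures while those at the other end act in posterior ones. In blood, HOXA genes are active in stem and progenitor cells of mice and humans and are silenced as the cells mature. High HOXA9, often with its partner MEIS1, is a known feature of human acute leukaemias, and Polycomb and KMT2A complexes are known to repress and activate the cluster.

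Total counts ran between 16415644 in lymph node clone 1 and 27253505 in lymph node clone 4 over the clones, and were 25156849 in CD21+ splenocytes and 21292294 in CD3+ splenocytes. Levels are counts-per-million scaled by TMM factors (CPM). A count of 0 allows up to 3 counts, which came to 0.137 CPM in CD21+ splenocytes and 0.180 CPM in CD3+ splenocytes, and intervals and floors cover counting error only. Lymph node clone 4 stood apart from the other clones. Its median correlation with them across 11544 genes was 0.976, against 0.986 to 0.993 for the other clones, and genes are not independent replicates in that value. The B cell markers summed to 3706 to 4754 CPM in the clones, against 5960 CPM in CD21+ splenocytes and 150 CPM in CD3+ splenocytes, and the T cell markers summed to 5.89 to 13.7, 88.7 and 5709 CPM in the same order. Blood progenitor markers (CD34, KIT, FLT3, GATA2 and MPO) summed to 74.1 to 120.3 CPM in the clones, 4.89 CPM in CD21+ splenocytes and 49.5 CPM in CD3+ splenocytes, with GATA2 at 0 in every clone and MPO at 0 in both controls. FLT3 made up most of the clone sums, with a mean of 88.7 CPM, whereas KIT was at 0.00792 CPM in the clones, 1.05 CPM in CD21+ splenocytes and 47.6 CPM in CD3+ splenocytes, nearly all of the CD3+ sum. Their part in the HOXA levels was not tested, nor was that of the stroma and endothelium markers, which summed to 6.89 to 15.5 CPM in the clones, 188 CPM in CD21+ splenocytes and 112 CPM in CD3+ splenocytes, with COL3A1 and CDH5 at 0 in every clone; PECAM1 alone gave 11.5 CPM in the clones, 184 CPM in CD21+ splenocytes and 93.3 CPM in CD3+ splenocytes. In bulk RNA, fewer cells that express a gene and less RNA per cell cannot be told apart.

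Transcripts of the HOXA cluster were present in all 6 clones and nearly absent from both controls. Summed over the 9 members, the level was 48.5, 66.8, 70.3 and 94.1 CPM in lymph node clones 1 to 4 and 82.5 and 104.6 CPM in spleen clones 1 and 2, against 0.503 CPM in CD21+ splenocytes and 0.240 CPM in CD3+ splenocytes. The control sums rested on 11 and 4 read counts, with 95% Poisson intervals of 0.251 to 0.900 CPM for CD21+ splenocytes and 0.0654 to 0.615 CPM for CD3+ splenocytes. HOXA2, HOXA3, HOXA4, HOXA5, HOXA7 and HOXA9 had over 10 counts in each clone, while no member reached 10 counts in either control. HOXA10, HOXA11 and HOXA13 were at or near 0 in all 8 libraries, so the cluster was transcribed in the clones along one stretch and not at its HOXA13 end.

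**Figure D1:**
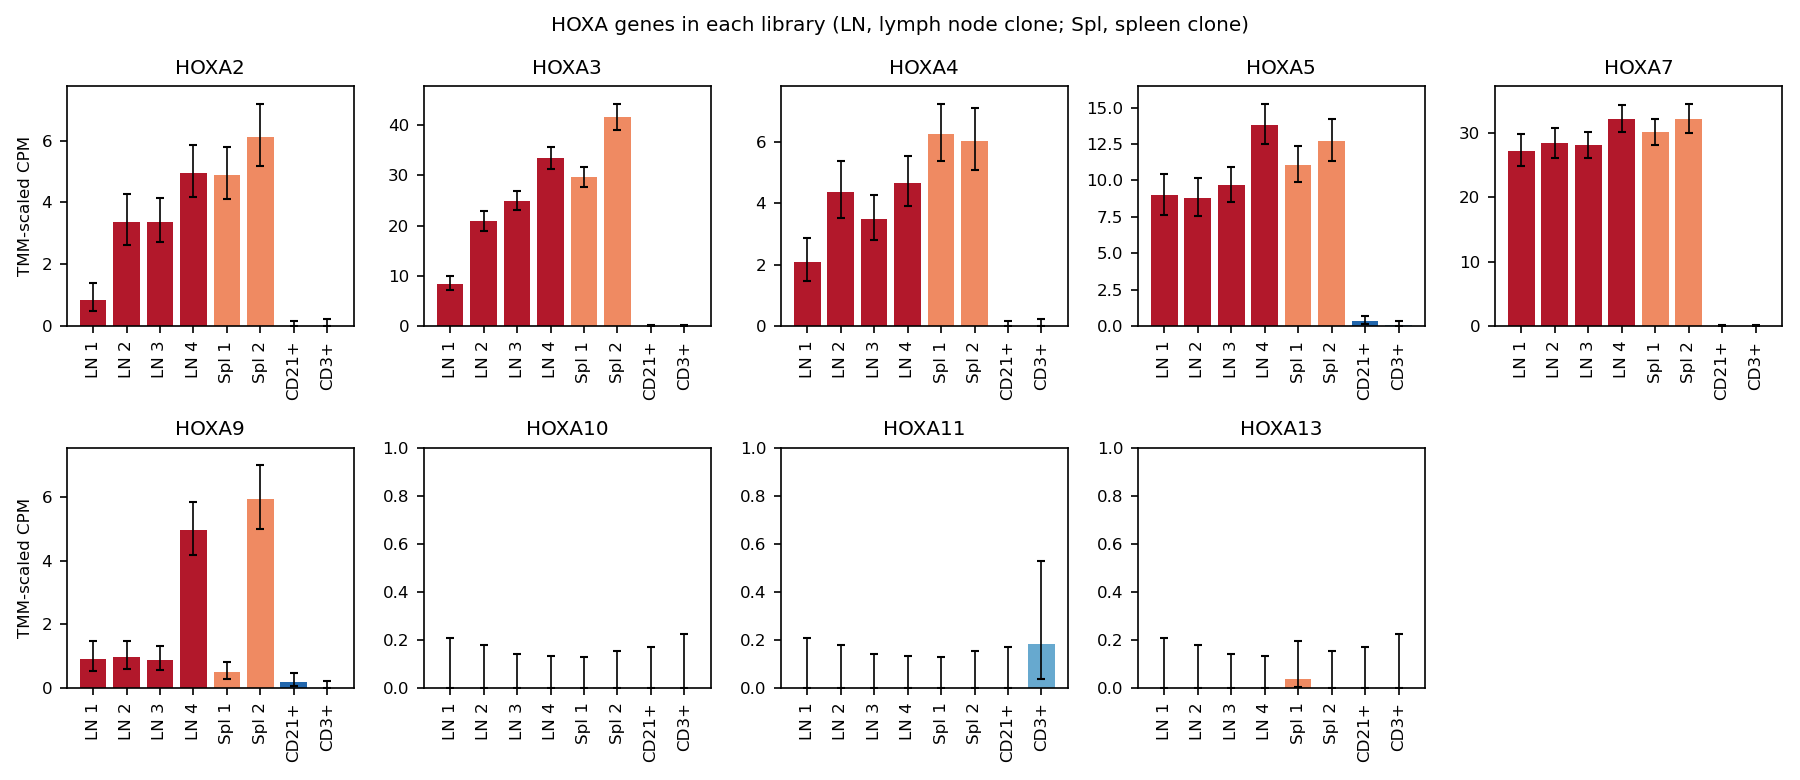
TMM-scaled CPM of each HOXA gene (y axis, linear, own scale per panel) in the 4 lymph node clones, the 2 spleen clones and the CD21+ and CD3+ splenocyte libraries (x axis); bars are single libraries and error bars 95% Poisson intervals of the counts. HOXA7 lies between 27.3 and 32.2 CPM in the clones and at 0 in both controls, HOXA9 stands out in lymph node clone 4 (4.96 CPM) and spleen clone 2 (5.95 CPM), and HOXA10, HOXA11 and HOXA13 stay at or near 0.

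HOXA2 and HOXA3 are anterior members, which in the mouse embryo pattern the hindbrain and the pharyngeal arches. HOXA2, which sets the identity of the second pharyngeal arch in mice, had no count in either control. It was at 0.846, 3.38, 3.37 and 4.96 CPM in lymph node clones 1 to 4 and at 4.90 and 6.11 CPM in spleen clones 1 and 2. Lymph node clone 1, with 15 counts, lay far below the other 5 clones. The clone mean of 3.93 ± 1.84 CPM was at least 28.6-fold higher than in CD21+ splenocytes and at least 21.8-fold higher than in CD3+ splenocytes. HOXA3, which is needed in mice for the thymus and parathyroid, was at 8.46, 20.9, 24.9 and 33.4 CPM in lymph node clones 1 to 4 and at 29.7 and 41.5 CPM in spleen clones 1 and 2, with no count in either control. Here too lymph node clone 1 was lowest and spleen clone 2 highest. The mean of 26.5 ± 11.4 CPM (SD, n = 6) was at least 193-fold higher than in CD21+ splenocytes and at least 147-fold higher than in CD3+ splenocytes.

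HOXA4, HOXA5 and HOXA7 are the central members. HOXA4, which acts in the axial skeleton of the mouse, was at 2.09, 4.37, 3.49 and 4.68 CPM in lymph node clones 1 to 4 and at 6.26 and 6.03 CPM in spleen clones 1 and 2, with no count in either control. Both spleen clones stood above all 4 lymph node clones. The clone mean of 4.48 ± 1.57 CPM was at least 32.7-fold higher than in CD21+ splenocytes and at least 24.9-fold higher than in CD3+ splenocytes.

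HOXA5, which is needed for lung development in mice, was the member with reads in both controls, 7 counts in CD21+ splenocytes and 1 in CD3+ splenocytes. Its level was 8.97, 8.79, 9.67 and 13.8 CPM in lymph node clones 1 to 4 and 11.1 and 12.7 CPM in spleen clones 1 and 2, against 0.320 CPM in CD21+ splenocytes and 0.0600 CPM in CD3+ splenocytes. The lowest clone was thus many times the higher control, and the clones ran over a smaller range than for HOXA2, HOXA3 or HOXA4. The clones averaged 10.8 ± 2.08 CPM (SD, n = 6), and the ratio of pooled counts was 34.4 over CD21+ splenocytes (95% interval 16.7 to 85.8) and 184 over CD3+ splenocytes (32.9 to 7259).

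HOXA7 encodes a homeodomain factor found in blood progenitors and overexpressed with HOXA9 in human KMT2A-rearranged leukaemia. It was at 27.3, 28.4, 28.1 and 32.2 CPM in lymph node clones 1 to 4 and at 30.1 and 32.2 CPM in spleen clones 1 and 2, and no read was counted in either control. The clones were close to one another, so the step to the controls was far larger than the spread between clones. The mean was 29.7 ± 2.14 CPM (SD, n = 6), and even the lowest clone was at least 199-fold higher than in CD21+ splenocytes and at least 152-fold higher than in CD3+ splenocytes.

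HOXA9, HOXA10, HOXA11 and HOXA13 are the posterior members. HOXA9, which supports blood stem cells in mice and is a leukaemia driver when overexpressed, was at 0.902, 0.951, 0.872 and 4.96 CPM in lymph node clones 1 to 4 and at 0.487 and 5.95 CPM in spleen clones 1 and 2. The CD21+ splenocytes held 4 counts (0.183 CPM) and CD3+ splenocytes none. Lymph node clone 4 and spleen clone 2 formed a high pair and the other 4 clones a low group, with 1 spleen clone in each. The 95% Poisson intervals of the high pair, 4.17 to 5.86 CPM and 5.01 to 7.01 CPM, did not meet those of the low group, the highest of which ended at 1.47 CPM. In spleen clone 1 the interval, 0.266 to 0.816 CPM, overlapped that of CD21+ splenocytes, 0.0499 to 0.469 CPM, so a difference between these libraries was not detectable at this depth. Pooled over the clones, the ratio to CD21+ splenocytes was 13.3 (95% interval 5.14 to 49.0), and the mean was at least 13.1-fold higher than in CD3+ splenocytes.

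HOXA10, known in mice for roles in the uterus and in myeloid cells, had 0 counts in all 8 libraries. HOXA11, a limb and kidney gene in mice, had 3 counts in CD3+ splenocytes and 0 in the other 7. HOXA13, which patterns the digits and the urogenital tract, had 1 count, in spleen clone 1. A count of 0 over the 6 clones together allows up to 0.0206 CPM, so HOXA10 and HOXA11 lay below that limit in the clones. No fold was computed for these 3 genes, because both sides were at or under the floor.

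On pig chromosome 18 (RefSeq, Sscrofa11.1, the assembly the series description names; the tables give no coordinates and genes were matched by symbol) the members span 45373340 to 45473345. They run in the order HOXA13, HOXA11, HOXA10, HOXA9, HOXA7, HOXA5, HOXA4, HOXA3 and HOXA2 with rising coordinate, except that the annotated span of HOXA3, 45421542 to 45467803, contains those of HOXA5 (45429691 to 45432723) and HOXA4 (45443268 to 45445662). HOXA10 at 45393525 to 45403259, with no read, ends 1334 bases before HOXA9 at 45404594 to 45411512. HOXA7 lies at 45417137 to 45419113. In all 6 clones HOXA10 had no read and HOXA9 had over 10 counts, so the change from no reads to some fell from HOXA10 to HOXA9. Counts per gene hold no position, so it could not be placed inside either span or in the interval between them. A step above control levels from HOXA10 to HOXA9 could not be shown in every clone. In spleen clone 1 HOXA9 had 14 counts, and its counting interval overlapped that of CD21+ splenocytes. In that clone such a step could also lie between HOXA9 and HOXA7. HOXA3 shares 3033 bases with HOXA5 and 2395 bases with HOXA4, the whole annotated spans of both. No source used here states the counting tool, so how reads in these stretches were assigned is not known. HOXA6, which RefSeq annotates inside the HOXA3 span, was not analysed here.

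**Figure D2:**
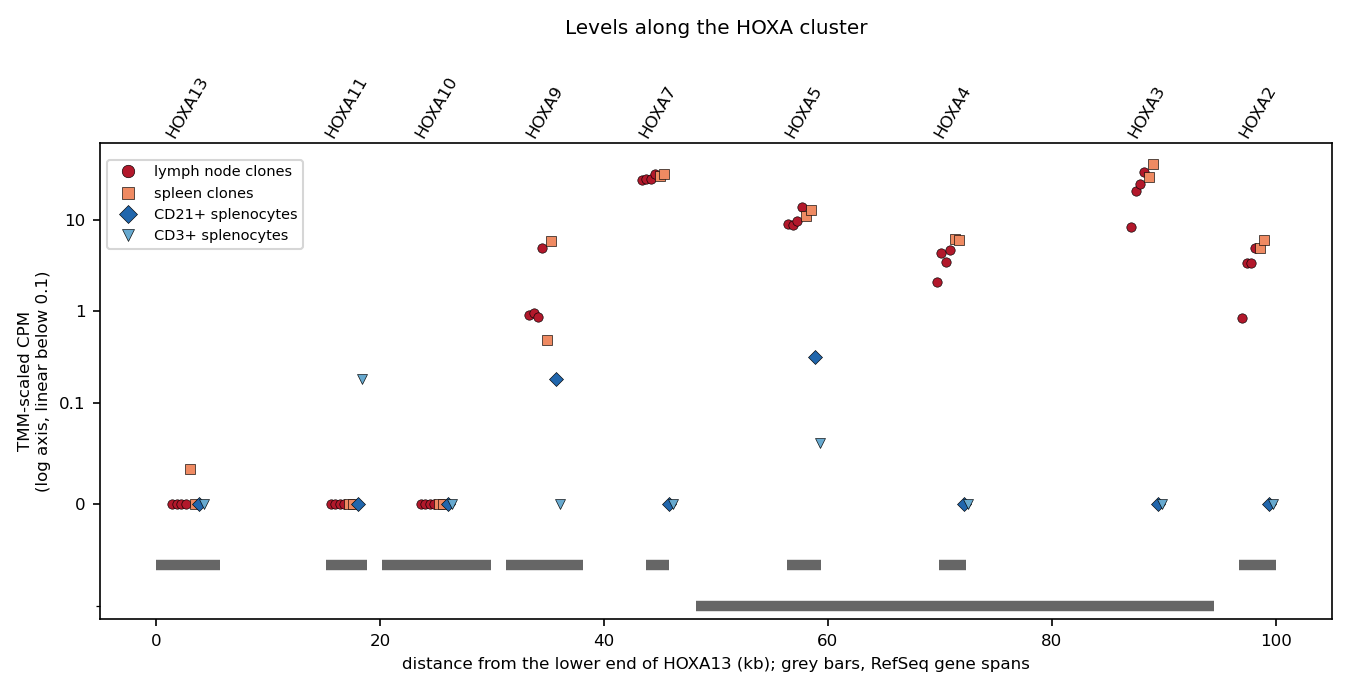
TMM-scaled CPM (y axis, log scale, linear below 0.1) of each HOXA gene against distance from the lower end of HOXA13 in kb (x axis); points are single libraries spread sideways for clarity, grey bars the RefSeq spans, and the HOXA3 points are drawn near the right end of its long span. The clones lie at or near 0 at HOXA13, HOXA11 and HOXA10 and above both controls at HOXA9 and at every gene to its right.

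The 6 transcribed members were each higher in all 6 clones than in both controls. This pattern held for 27.2% of the 17091 features with a count in some library, and the cluster was chosen for it, so nothing is read from that share or the next. HOXA3, HOXA4 and HOXA7 had no count in either control and 1 CPM or more in each clone, a pattern met by 0.644% of those features, and HOXA2 missed it through the 0.846 CPM of lymph node clone 1 alone. In the authors' deposited table the linear fold of the clones over CD21+ splenocytes was 5705 for HOXA7, 5082 for HOXA3, 864 for HOXA4 and 757 for HOXA2. For HOXA5 and HOXA9, which had reads in that control, the authors' deposited table gives 33.6 and 12.6. Where the control is at 0 such a fold depends on the constant added to it, and the bounds above are the part that the counts themselves give.

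The members varied among the clones to very different degrees. The coefficient of variation over the 6 clones was 7.20% for HOXA7 and 19.2% for HOXA5, beside a median of 9.41% over 11544 features with a clone mean of 1 CPM or more. It was 35.0% for HOXA4, 42.9% for HOXA3, 46.8% for HOXA2 and 103% for HOXA9. HOXA7 thus stood at percentile 35.5 of all such features, HOXA5 at percentile 80.7 and HOXA9 at percentile 99.7. Low counts add to these values. The counting interval of the ratio between the highest and the lowest clone lay above 1 for every member, though the extremes were picked out of 6 clones, which makes such intervals too narrow. The highest clone exceeded the lowest by a ratio of 12.2 for HOXA9 (spleen clone 2 over spleen clone 1, 95% counting interval 7.05 to 22.9) and 7.23 for HOXA2 (spleen clone 2 over lymph node clone 1, 4.24 to 13.2). The ratio was 4.91 for HOXA3 (spleen clone 2 over lymph node clone 1, 4.13 to 5.87) and 3.0 for HOXA4 (spleen clone 1 over lymph node clone 1, 2.10 to 4.40). For HOXA5 it was 1.57 (lymph node clone 4 over clone 2, 1.31 to 1.88) and for HOXA7 1.18 (lymph node clone 4 over clone 1, 1.06 to 1.32).

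**Figure D3:**
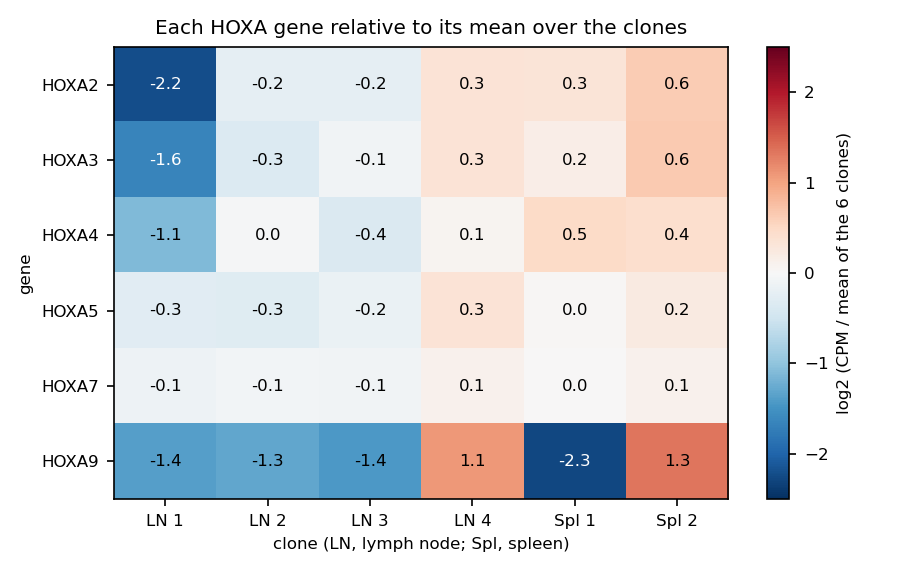
Log2 of the ratio of each clone's level to the mean over the 6 clones (colour and printed value) for the 6 transcribed HOXA genes (rows) in the 4 lymph node and 2 spleen clones (columns). HOXA2, HOXA3 and HOXA4 share a low value in lymph node clone 1, HOXA9 is high in lymph node clone 4 and spleen clone 2, and HOXA7 barely varies.

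The differences between clones followed a few patterns. HOXA2, HOXA3 and HOXA4 were all lowest in lymph node clone 1, as was HOXA7, by a smaller ratio. The annotated span of HOXA4 lies inside that of HOXA3, so their reads may not be separate. HOXA5, inside that span too, was lowest in lymph node clone 2. Lymph node clone 1 was also the clone with the fewest total counts. The part of depth in its low values was not tested, although CPM is scaled for it. The ratio of HOXA3 to HOXA7 counts within a library was 0.310 in lymph node clone 1, 0.734 in clone 2, 0.885 in clone 3 and 1.04 in clone 4, and 0.985 and 1.29 in spleen clones 1 and 2. HOXA2 over HOXA7 was 0.0310 in lymph node clone 1 and lay between 0.119 and 0.190 in the other clones. A ratio within a library does not depend on the scaling, so the low HOXA2 and HOXA3 of lymph node clone 1 held against HOXA7 of the same library. HOXA9 over HOXA7 was 0.154 in lymph node clone 4 and 0.185 in spleen clone 2, against 0.0161 to 0.0334 in the other clones.

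As a result the make-up of the cluster's reads differed between clones. HOXA7 took 56.2% of the counts of the 9 members in lymph node clone 1 (95% Wilson interval 52.9 to 59.5%) and 30.8% in spleen clone 2 (29.0 to 32.6%). HOXA3 took 17.4% (15.0 to 20.1%) and 39.7% (37.8 to 41.7%) in the same libraries. Their sum was steadier, 72.6 ± 2.09% over the clones (SD, n = 6), with a range of 69.8 to 75.3%. HOXA5 took 14.3 ± 2.21%. HOXA9 took 2.68 ± 2.21%, with 0.589% in spleen clone 1 and 5.69% in spleen clone 2 as the extremes. These shares compare clones for the same gene. They do not rank the genes, since longer transcripts give more reads and no transcript lengths were used.

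The summed HOXA level ordered the clones as spleen clone 2, lymph node clone 4, spleen clone 1, lymph node clone 3, lymph node clone 2 and lymph node clone 1. The 95% Poisson intervals of lymph node clones 3 and 2 overlapped (67.2 to 73.6 and 63.3 to 70.4 CPM). All other neighbours in that order had intervals that did not meet, the closest being spleen clone 2 (100.5 to 108.8 CPM) and lymph node clone 4 (90.5 to 97.7 CPM), and the highest was 2.15 times the lowest.

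Whether tumour site went with the level of the cluster was tested between the 4 lymph node clones and the 2 spleen clones, a comparison that played no part in choosing the genes. None of the 6 members tested differed at an adjusted p under 0.05 (edgeR quasi-likelihood test, Benjamini-Hochberg adjustment). In the same fit 0.0% of 12580 features were called, 605 had an unadjusted p under 0.05, and DESeq2 called 20. HOXA10, HOXA11 and HOXA13 did not pass the filter on low counts. The summed level was 69.9 ± 18.7 CPM in lymph node clones (SD, n = 4) and 93.6 ± 15.6 CPM in spleen clones (SD, n = 2), and the sites overlapped.

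HOXA2 averaged 3.14 ± 1.70 CPM in lymph node clones and 5.51 ± 0.859 CPM in spleen clones, a log2 fold change of -0.79 ± 0.53 (SE, edgeR adjusted p = 0.961). HOXA4 averaged 3.66 ± 1.16 CPM in lymph node clones and 6.14 ± 0.159 CPM in spleen clones, a log2 fold change of -0.74 ± 0.30 (unadjusted p = 0.0462, edgeR adjusted p = 0.942). HOXA4 was the 1 member whose sites did not overlap, with every lymph node clone below both spleen clones, and 8.17% of the features tested showed that arrangement. HOXA9 averaged 1.92 ± 2.03 CPM in lymph node clones and 3.22 ± 3.86 CPM in spleen clones, a log2 fold change of -0.70 ± 1.04 (edgeR adjusted p = 0.996). Its sign rested on spleen clone 2, without which the log2 fold change was 2.00. For HOXA3, with 21.9 ± 10.4 CPM in lymph node clones and 35.6 ± 8.39 CPM in spleen clones, the log2 fold change was -0.68 ± 0.44 and for HOXA5 it was -0.20 ± 0.21. HOXA7 gave the tightest estimate, -0.10 ± 0.09, with 29.0 ± 2.20 CPM in lymph node clones and 31.2 ± 1.47 CPM in spleen clones. With 4 and 2 clones the test does not show that the sites are alike.

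Among the sister clusters, HOXB also had reads in the clones. Of 10 HOXB genes, HOXB3, HOXB4, HOXB5, HOXB6 and HOXB7 passed the filter on low counts. These 5 had 0 to 2 counts in each control and passed through the clones alone, so they could only be called higher, and nothing is read from their calls. Over all features, 34.8% of 13498 were called higher and 32.4% lower against CD21+ splenocytes, and 36.8% of 13560 higher and 35.1% lower against CD3+ splenocytes. HOXB7, the paralogue of HOXA7, averaged 21.3 ± 1.17 CPM over the clones, with no read in either control, at least 155-fold higher than in CD21+ splenocytes and at least 118-fold higher than in CD3+ splenocytes. HOXB3 was at 7.23 ± 0.627 CPM in the clones, against 1 count in CD21+ splenocytes and none in CD3+ splenocytes. HOXB4 was at 3.24 ± 0.653 CPM, HOXB6 at 0.584 ± 0.169 CPM and HOXB5 at 0.433 ± 0.153 CPM in the clones, with at most 2 counts in any control, and HOXB5 was not called against CD21+ splenocytes by DESeq2. No count of the 9 HOXC or the 9 HOXD genes fell in any clone, and HOXC4 had 21 counts in CD21+ splenocytes (0.961 CPM). HOXA and HOXB were thus the 2 HOX clusters with reads in the clones.

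HOXA proteins bind DNA with cofactors of the TALE homeodomain class. Of 10 MEIS, PBX, PKNOX and TGIF genes of that class, 6 were called higher, 1 lower and 3 neither against CD21+ splenocytes. Against CD3+ splenocytes 7 were higher, 1 lower and 2 neither. Over all features 34.8% were higher and 32.4% lower, and 36.8% higher and 35.1% lower, in the same order. Membership of the class does not make a gene a HOXA cofactor. The counts include TGIF1 and TGIF2, and TGIF2 was called higher against both controls. MEIS1 and MEIS3, with at most 3 counts in a control, could only be called higher. The same held for PKNOX2 against CD3+ splenocytes, where it had no count. MEIS2, with 2 counts in CD21+ and 0 in CD3+ splenocytes, was likewise limited but not called. The numbers called higher thus rest partly on calls fixed in advance. With these genes included, the median log2 fold change of the 10 genes was 1.20 over CD21+ splenocytes and 1.51 over CD3+ splenocytes, beside 0.05 for all genes in both fits. The 1 lower call, TGIF1 against CD21+ and PBX2 against CD3+ splenocytes, was lost with scaling by total counts alone, and lower calls numbered 2 against either control without lymph node clone 4. MEIS1, the partner of HOXA9 in leukaemia, was at 67.9, 87.6, 90.2 and 26.4 CPM in lymph node clones 1 to 4 and at 95.6 and 91.3 CPM in spleen clones 1 and 2, against 0 CPM in CD21+ splenocytes and 0.180 CPM (3 counts) in CD3+ splenocytes. The 2 clones with high HOXA9 thus held the lowest MEIS1 level, in lymph node clone 4, and one of the highest, in spleen clone 2. MEIS3 stood at 1.86 ± 0.718 CPM in the clones with 1 count in each control, PBX4 at 5.62 ± 0.774 CPM against 1.19 CPM in CD21+ and 1.56 CPM in CD3+ splenocytes, and PKNOX2 at 0.877 ± 0.206 CPM against 0.320 CPM and 0 CPM. PKNOX1 was at 41.7 ± 2.81 CPM in the clones, against 16.5 CPM in CD21+ and 33.0 CPM in CD3+ splenocytes, and its call against CD3+ splenocytes was lost with DESeq2 and without lymph node clone 2.

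Genes whose products are known to activate or repress the cluster were called in both directions. Of 22 activators tested, 7 were higher and 10 lower against CD21+ splenocytes (median log2 fold change -0.10), and 7 higher and 9 lower against CD3+ splenocytes (-0.14). The share higher, 31.8% in both, lay near the 34.8% and 36.8% of all features, and the share lower was 45.5% and 40.9%, beside 32.4% and 35.1%. These shares include CDX1, which had no count in either control and could only be called higher. They also include MLLT3, which had 11 counts over the 6 clones and could only be called lower. With scaling by total counts alone, which moved the median of all genes to 0.35 and 0.51, the split became 9 to 6 and 11 to 4 and both medians turned positive. KMT2A, the histone methyltransferase that maintains HOXA transcription, was at 63.5 ± 5.61 CPM in the clones, against 143 CPM in CD21+ and 135 CPM in CD3+ splenocytes (log2 fold change -1.18 ± 0.11 over CD21+ splenocytes, edgeR adjusted p = 4.02e-05). MLLT3 and AFF1, elongation factors fused to KMT2A in human leukaemia, were lower, MLLT3 at 0.0737 ± 0.0233 CPM in the clones and 3.11 CPM in CD21+ splenocytes, and AFF1 at 1.28 ± 0.785 CPM in the clones and 14.0 CPM in CD21+ splenocytes. CDX1, a homeobox activator of HOX genes, was at 0.270 ± 0.133 CPM in the clones and 0 in both controls. Of 28 Polycomb genes tested, 11 were higher and 5 lower against CD21+ splenocytes (median 0.17), and 12 higher and 10 lower against CD3+ splenocytes (0.04). These shares higher, 39.3% and 42.9%, lay near the 34.8% and 36.8% of all features, and the share lower was 17.9% and 35.7%, beside 32.4% and 35.1%. With RLE size factors the Polycomb split against CD3+ splenocytes was 10 to 12, and with scaling by total counts it was 16 to 4 against CD21+ and 16 to 7 against CD3+ splenocytes. BMI1, a core repressor subunit, was at 886 ± 199 CPM in the clones, against 68.2 CPM in CD21+ and 54.4 CPM in CD3+ splenocytes, and RNF2, its enzymatic partner, at 96.2 ± 5.86 CPM against 30.7 and 34.0 CPM. CBX7 and PHF1, of the same system, were lower, CBX7 at 0.808 ± 0.283 CPM in the clones and 5.81 CPM in CD21+ splenocytes, and PHF1 at 11.3 ± 0.921 CPM in the clones and 44.9 CPM in CD21+ splenocytes.

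Genes reported as targets of HOXA9 in human or mouse leukaemia were also examined; FLT3 and CD34 among them are progenitor markers too. Of 18 tested, 11 were higher and 6 lower than in CD21+ splenocytes, and 11 higher and 4 lower than in CD3+ splenocytes, with a median log2 fold change of 2.64 and 2.35. The share higher was 61.1% in both, beside 34.8% and 36.8% of all features, and the share lower was 33.3% and 22.2%, beside 32.4% and 35.1%. With IGF1, which had no count in either control and could only be called higher, put at its lower bound the medians are 1.10 and 2.10. DACH1, CD34 and SOX4, at 1, 5 and 6 counts in CD21+ splenocytes, could likewise only be called higher there. The same held for ERG against CD3+ splenocytes, at 4 counts. The shares higher and the medians include these genes and rest partly on calls that were fixed in advance. ERG was at 188 ± 24.9 CPM in the clones, against 0.595 CPM in CD21+ and 0.240 CPM in CD3+ splenocytes, and MYB at 611 ± 65.3 CPM against 8.87 and 24.9 CPM. SOX4 was at 53.1 ± 14.4 CPM against 0.274 and 13.8 CPM, and DACH1 at 22.6 ± 4.04 CPM against 0.0457 CPM (1 count) and 13.5 CPM. The call of DACH1 against CD3+ splenocytes was lost without lymph node clone 2, lymph node clone 3, spleen clone 1 or spleen clone 2. ERG, MYB and SOX4 are transcription factors of early blood cells in mice and humans. They varied less between the clones than HOXA9 did, but low counts add to the spread of HOXA9. Whether HOXA9 acts on them was not tested.

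**Figure D4:**
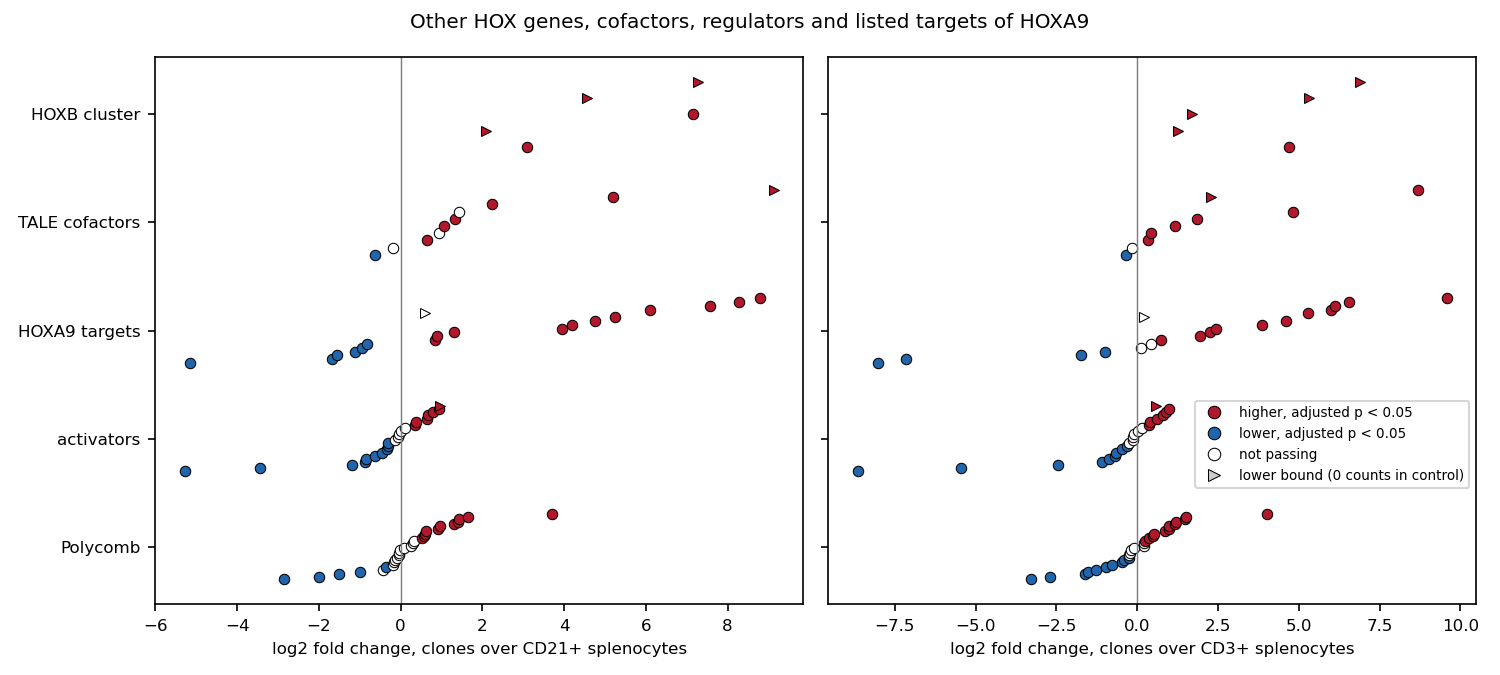
Log2 fold change of the 6 clones over CD21+ splenocytes (left) and CD3+ splenocytes (right) for the tested genes of 5 lists related to the HOXA cluster; each point is 1 gene, red and blue mark an edgeR adjusted p under 0.05, and triangles are lower bounds where the control had 0 counts. Activators and Polycomb genes spread to both sides of 0; the 5 HOXB genes, at 0 to 2 counts in each control, could lie only to the right; MEIS2 is not drawn at right, since both of its levels were at or under the floor.

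Genes outside the cluster but within 1 Mb of its ends were mostly read in the controls as well. EVX1, a homeobox gene beyond HOXA13, had no count in any library. Of the 7 other neighbours, 3 were called higher and none lower against CD21+ splenocytes, and 5 higher and none lower against CD3+ splenocytes. The shares higher were 42.9% and 71.4%, beside 34.8% and 36.8% of all features called higher and 32.4% and 35.1% called lower. The median log2 fold change of the 7 was 0.44 and 1.87, beside 0.05 for all genes in both fits. JAZF1 was at 83.4 ± 29.0 CPM in the clones, against 4.44 CPM in CD21+ and 31.3 CPM in CD3+ splenocytes (log2 fold change 4.23 ± 0.67 over CD21+ splenocytes, edgeR adjusted p = 0.000683). NFE2L3, which overlaps HNRNPA2B1 by 2470 bases, was at 81.8 ± 11.8 CPM, against 8.69 and 5.04 CPM. HIBADH was at 80.6 ± 8.58 CPM, against 20.2 and 21.9 CPM. SKAP2, on the HOXA2 side, was at 203 ± 20.3 CPM in the clones, against 173 CPM in CD21+ splenocytes (edgeR adjusted p = 0.184) and 31.8 CPM in CD3+ splenocytes, and SNX10 at 140 ± 34.2 CPM against 212 and 29.96 CPM. TAX1BP1 and HNRNPA2B1 were not called against either control. The call of JAZF1 against CD3+ splenocytes was lost when lymph node clone 3, spleen clone 1 or spleen clone 2 was left out. All 7 were read in the controls at 4.44 CPM or more, unlike the HOXA genes.

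**Figure D5:**
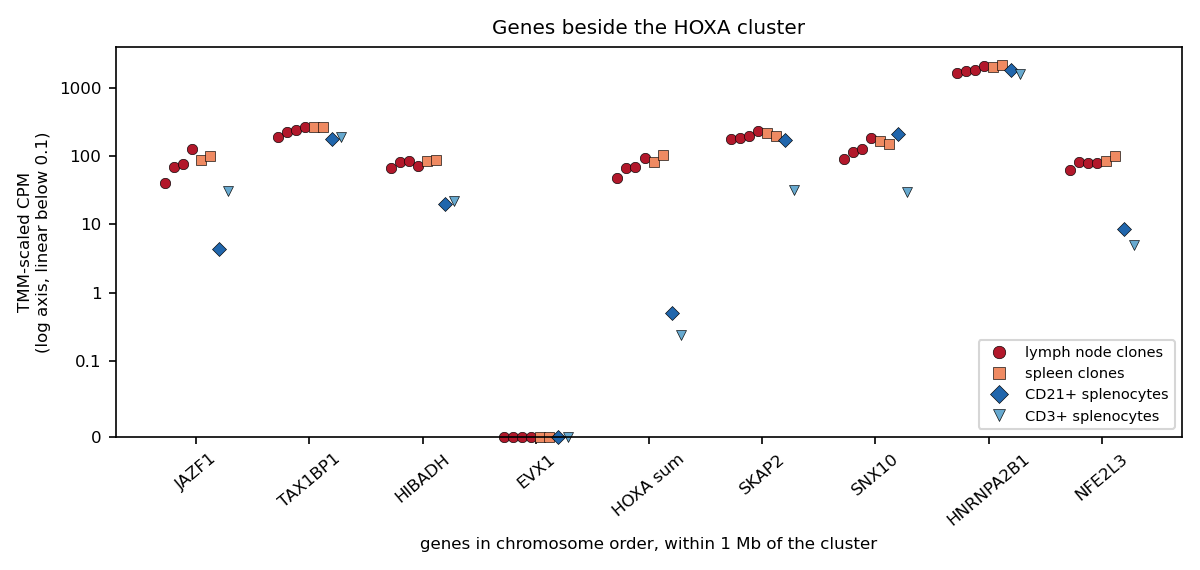
TMM-scaled CPM (y axis, log scale, linear below 0.1) of the summed HOXA genes and of the genes within 1 Mb of the cluster, in chromosome order (x axis); points are single libraries. The HOXA sum is at 48.5 CPM or more in the clones and below 1 CPM in both controls, while the neighbours other than EVX1 hold 4.44 CPM or more in every library.

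Over the 8 libraries, the genes whose pattern lay closest to that of HOXA7 were the Ensembl gene ENSSSCG00000037959, SPRED1, FAM162B, LRP6 and F13A1, with root mean square differences of 0.118, 0.125, 0.134, 0.138 and 0.156 on centred log2(CPM + 1) among 11544 genes. The nearest fellow member, HOXA3, came at rank 187 with 0.552. ENSSSCG00000037959, to which no gene name was matched, was at 30.2 ± 2.59 CPM in the clones with no count in either control. The measure weighs the step between clones and controls together with evenness among the clones, and 8 libraries with single controls leave many genes near each other. By the same measure GPC3 (0.308) and MET (0.386) lay closest to HOXA3, and SEMA5B (0.442) lay closest to HOXA9; these comparisons were chosen after the data were seen. GPC3 was lowest in lymph node clone 1 (13.3 CPM) and highest in spleen clone 2 (43.1 CPM), as HOXA3 was.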

How the data were processed

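Paired-end Illumina reads were made from the RNA of 8 pig samples, per the labels. Trimmomatic, Bowtie2 and edgeR are named in the submitters' processing notes without versions, and the genome in the series description is Sscrofa11.1; for the counting tool, the annotation and strandedness the sources used here give nothing. The authors deposited a table of read counts for 7 libraries and one with counts and reads-per-million (RPM) for all 8, per the file headers. Counts of the 7 shared libraries were identical, and RPM matched each count divided by its column total to 7.3e-12. Other values in the deposited tables are the authors' p-values, not used, and a signed linear fold, used as a score and printed as deposited. The 2 lines with no feature ID were left out. Of 6841 features with an Ensembl ID alone, 877 were named from a gene name table.

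After TMM scaling and a filter on low counts (filterByExpr by group), the whole table was fitted in edgeR 4.0.16 with two-sided quasi-likelihood F-tests and a Benjamini-Hochberg threshold of 0.05, in separate fits of the 6 clones against each control and of lymph node against spleen clones. A lone control was assumed to vary like the clones. SE is approximate: the size of the log2 change divided by the root of F. Bounds use 3 counts for a control at 0, ratios of pooled counts have exact conditional 95% intervals, levels exact Poisson and shares Wilson intervals, which cover counting error only. The 3 fits were tested on simulated counts. Named genes were all HOXA members, in each list the 4 called genes with the largest change over the CD21+ library and any called higher with 0 counts in a control, all neighbours, the 5 genes most like HOXA7, and in full the 3 members with the largest change between sites. The members, lists and rules were chosen with earlier results of these data known. Alternatives were RLE and total-count scaling, no filter, DESeq2 1.42.0, leaving out each clone, a replicate block, one fit over all libraries, and a window of 0.5 Mb. Levels per transcript length were not computed, as no lengths were used. Results for some genes are not reported here.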

Additional observations from a re-analysis of the deposited data

Results flagged for a closer look

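HOXA9 in lymph node clone 4 lay far from the other lymph node clones: its gap to the nearest of them was 0.981 of the range of the 4 clones, above Dixon's 95% critical value for 4 samples. The 4 values were 0.902, 0.951, 0.872 and 4.96 CPM, on 16, 20, 23 and 139 counts. This was 1 of 12 such checks, for 6 genes over the lymph node clones and over all 6 clones, and chance flags about 1 in 20. Over all 6 clones HOXA9 was not set apart in this way, because spleen clone 2 was as high, at 5.95 CPM.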

How the results depend on the processing

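Between lymph node and spleen clones 0 features were called in the edgeR fit, 20 with DESeq2 and 0 to 1 when a clone was left out (1 without lymph node clone 4). With a replicate block from the clone numbers 570 features were called, among them 1 member, HOXA3 (log2 fold change -1.33, edgeR adjusted p = 0.0126). Deviations of same-numbered clones from their site means correlated at 0.186 for number 1 and -0.0859 for number 2. The highest value was 0.229, for lymph node clone 4 with spleen clone 2. With 2 spleen clones, 1 deviation mirrors the other, so values for spleen clone 2 are those for spleen clone 1 with the sign reversed. These correlations therefore cannot decide whether the numbers pair the clones. The main fit used no block. HOXA9 ranged over -1.79 to 2.00 when clones were left out. Against the CD3+ library total-count scaling gave 3115 lower calls in place of 4765, and 15 lower calls among the listed genes in place of 24. Called-higher neighbours numbered 3 against the CD21+ library, 6 with total-count scaling and 1 within 0.5 Mb, and 5 against the CD3+ library, 7 with total-count scaling, 2 within 0.5 Mb and 4 to 6 when a clone was left out; 0 to 1 were lower against the CD21+ library when a clone was left out. Of the other values recomputed, 146 that answer a comparison and 426 single values or list counts kept their side and direction. The cause of each change was not tested, apart from the narrower window, which holds 2 tested neighbours. Levels per transcript length were not run. At these depths, levels under 0.137 to 0.180 CPM in a control could not be told from 0.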
